A study of Mus musculus with 6 samples.

Results

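The 34 genes described here are markers of vascular endothelium, the cell layer that lines blood vessels, including the fenestrated capillaries of the glomerulus. They were chosen by name as endothelial genes, with earlier results of these data known, so their counts describe these genes and are not independent evidence of a direction. All 34 were found among the 57132 gene rows of the count table and among the 19927 genes that passed the filter on low counts. The samples are glomeruli of mice with diabetic kidney disease (DKD) per the labels, and all 6 carried floxed Setdb2 alleles. The Cre_negative group (Cre-/Setdb2fl/fl DKD) and the Cre_positive group (Cre+/Setdb2fl/fl DKD) had 3 samples each, and the series asks what SETDB2 of podocytes contributes to the disease. The sources used here do not name the promoter behind Cre, the way diabetes was induced, the mice's age or sex, or any pooling of animals. No non-diabetic samples were analysed here, so each difference below is between genotypes under diabetes.

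Endothelial cells keep their identity through a small set of transcription factors of the ETS family (Erg and Fli1), the SOXF family (Sox7, Sox17 and Sox18) and Tal1, which act on genes for cell junctions, receptors and secreted proteins. The glomerular capillary differs from other capillaries of the kidney in that its mature fenestrae lack the diaphragm made of the Plvap protein, and in expressing Ehd3, a membrane trafficking protein used as a marker of glomerular endothelium. Podocytes, on the other side of the basement membrane, are the source of VEGF on which this endothelium depends.

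Total counts ranged from 53571438 to 58807042 per library. Xist RNA had 24 counts in Cre_positive replicate 2 and 36474 to 47632 in the other 5 libraries, so that library stands apart, and values without it are given below. Setdb2 itself was at 8.37 ± 1.62 CPM (library-scaled read counts, with TMM factors) with Cre absent and 7.70 ± 0.371 CPM with Cre present (SD, n = 3; edgeR adjusted p = 0.738), so the gene-level count does not check the genotype labels. No label states that replicates were separate animals, so the p-values reflect only the spread between these samples. By its Xist count, Cre_positive replicate 2 is not a repeat of the same RNA as another library. Among the other 5 libraries the spread within a group may be technical.

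Most of the endothelial genes had higher levels in the Cre_positive libraries. Of the roles assigned here, the junction and surface group held most of those that passed the test. Receptors grouped elsewhere, such as Eng, also lie at the cell surface. Of the 34 genes, 9 rose and none fell at a Benjamini-Hochberg adjusted p of 0.05 over all genes tested (edgeR, quasi-likelihood): Pcdh12, Ehd3, Cdh5, Emcn, Pecam1, Egfl7, Ptprb, Sox17 and Eng. That is 26.5% of the members, where 3.73% of all genes tested rose, 3.82% fell and 7.55% did either. The median log2 fold change of the 34 genes was 0.39, against -0.000887 over all genes tested. The fitted change was above 0 for 33 members (97.1%, against 49.9% of all genes), and Nostrin alone was below 0, as were 50.1% of all genes, with a value that came to -0.00558 without Cre_negative replicate 1. In 20 members (58.8%) all 3 Cre_positive libraries lay above all 3 Cre_negative ones, which held for 15.2% of all genes tested, and in no member was the order the other way (14.5% of all genes). The summed level of the 34 genes was 1057, 1245 and 1214 CPM in Cre_negative replicates 1, 2 and 3 and 1543, 1674 and 1568 CPM in the Cre_positive ones. In bulk RNA, a larger share of endothelial cells and more of these transcripts per endothelial cell cannot be told apart. Without Cre_positive replicate 2 the median was 0.35 and 6 members rose, and these were Pcdh12, Ehd3, Cdh5, Emcn, Pecam1 and Egfl7.

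**Figure D1:**
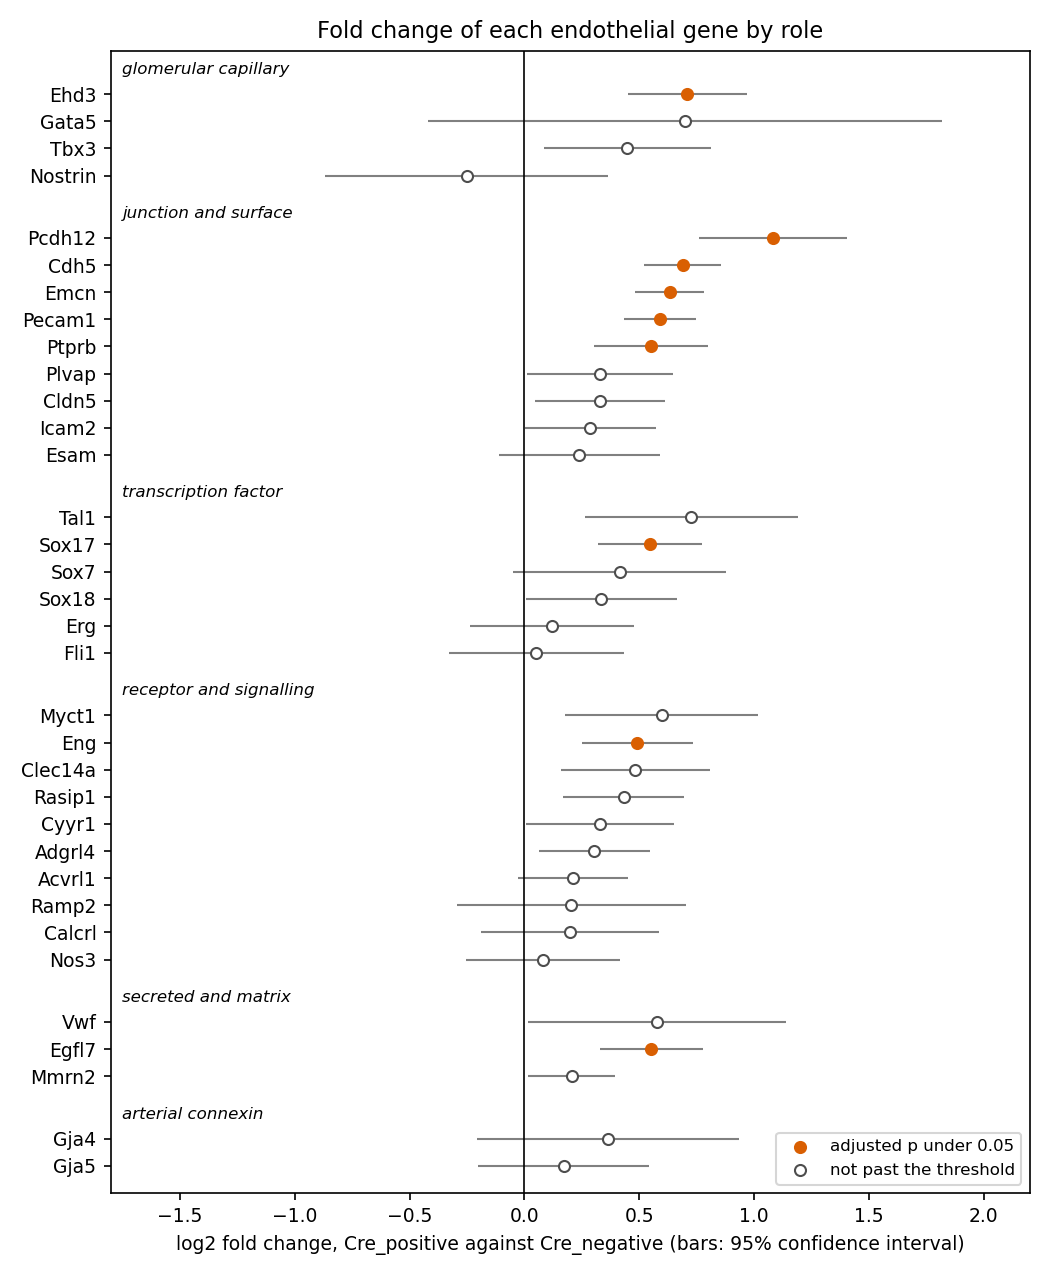
Fitted log2 fold change of each of the 34 endothelial genes in Cre_positive against Cre_negative libraries (n = 3 each), with its 95% confidence interval as a bar, grouped by role. Filled points passed the adjusted p of 0.05 (edgeR). All 9 filled points lie right of 0, 5 of them in the junction and surface group, and Nostrin alone has a point left of 0.

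The sequences next to the start sites of 5 members are shown because 4 of these genes rose together and the fifth, Nostrin, had the lowest fold change. Each runs from 250 bases before to 20 bases after a start site annotated by RefSeq on the build GRCm38.p6, on the plus strand, at chr17:73804591-73804860 for Ehd3, chr3:137340828-137341097 for Emcn, chr2:26580833-26581102 for the first of 3 annotated Egfl7 starts, chr2:32646345-32646614 for Eng and chr2:69135550-69135819 for Nostrin. The submitters' processing notes name GRCm39, another build than this one, so the stretches serve as sequence and not as positions of counted reads. Capitals mark AGGAAG or its reverse complement CTTCCT, 6 letters that hold the core recognised by ETS factors.
Ehd3: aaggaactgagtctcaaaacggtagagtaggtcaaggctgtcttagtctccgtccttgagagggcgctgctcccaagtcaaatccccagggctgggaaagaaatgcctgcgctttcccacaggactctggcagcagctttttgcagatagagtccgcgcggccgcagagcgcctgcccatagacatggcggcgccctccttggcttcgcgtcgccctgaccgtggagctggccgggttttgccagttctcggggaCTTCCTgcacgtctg
Emcn: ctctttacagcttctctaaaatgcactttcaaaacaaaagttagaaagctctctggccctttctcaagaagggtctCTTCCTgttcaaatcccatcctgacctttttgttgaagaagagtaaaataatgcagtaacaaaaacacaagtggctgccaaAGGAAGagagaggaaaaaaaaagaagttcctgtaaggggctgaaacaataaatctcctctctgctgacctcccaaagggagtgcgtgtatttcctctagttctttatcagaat
Egfl7: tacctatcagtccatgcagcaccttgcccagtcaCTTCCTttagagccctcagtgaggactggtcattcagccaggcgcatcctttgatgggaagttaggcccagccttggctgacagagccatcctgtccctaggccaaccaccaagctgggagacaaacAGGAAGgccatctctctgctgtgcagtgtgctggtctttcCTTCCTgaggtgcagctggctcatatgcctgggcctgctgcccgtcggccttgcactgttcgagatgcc
Eng: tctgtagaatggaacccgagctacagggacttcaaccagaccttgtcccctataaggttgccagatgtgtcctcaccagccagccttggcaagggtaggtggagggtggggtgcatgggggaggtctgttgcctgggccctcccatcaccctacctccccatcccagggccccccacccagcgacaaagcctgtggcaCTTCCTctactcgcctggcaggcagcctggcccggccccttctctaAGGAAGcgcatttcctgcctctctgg
Nostrin: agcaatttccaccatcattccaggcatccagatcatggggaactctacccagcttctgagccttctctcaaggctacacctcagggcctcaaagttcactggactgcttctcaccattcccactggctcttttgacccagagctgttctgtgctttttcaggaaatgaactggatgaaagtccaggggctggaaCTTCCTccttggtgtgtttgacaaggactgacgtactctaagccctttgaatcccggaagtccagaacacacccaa
The Egfl7 stretch holds 3 matches, Emcn and Eng hold 2 each, and Ehd3 and Nostrin hold 1 each. The windows of 300 bases at the other Egfl7 starts hold 2 matches at the second and 0 at the third. In Eng they begin at positions -52 and -6 relative to the start site and in Emcn at -174 and -93, while the single match of Ehd3 begins at base 6 of the transcript. The RefSeq table held windows of 300 bases for 17 of the 34 members, 22 windows in all. AGGAAG on either strand occurred in 14 of these 22 windows (63.6%), against 35.4% of the 32851 windows in the table. The other motifs searched on both strands, whose matches can share end letters with AGGAAG, were AGATAA for GATA factors, in 3 member windows (13.6% against 11.2% of all), AACAAT for SOX factors, in 3 (13.6% against 10.7%), and CAGATG, an E-box of the kind TAL1 binds, in 4 (18.2% against 17.2%). Several windows can belong to a single gene, the median GC content was 57.5% in member windows and 52.7% in all, and a match describes letters, not binding.

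Levels differed widely among members on a per-length scale, CPM per kilobase of merged exons in GENCODE M21. Plvap, the fenestral diaphragm gene of peritubular and other fenestrated capillaries, was highest at 116 ± 22.6 in Cre_negative and 146 ± 13.1 in Cre_positive libraries (SD, n = 3). Eng followed at 45.4 ± 4.06 and 63.8 ± 7.71, then Egfl7 at 17.6 ± 1.35 and 25.8 ± 3.03. Esam, Pecam1, Emcn and Cdh5 came next, with Cre_negative levels of 15.9 ± 3.37, 12.1 ± 0.743, 11.7 ± 0.474 and 11.15 ± 0.3999, and the order of Pecam1, Emcn and Cdh5 is not set by differences beyond their spread. Adgrl4, Sox18 and Cldn5 also averaged at least 10 over the 6 libraries, 14 members lay between 3 and 10, and 7 lay between 1 and 3. The lowest were Tal1 at 0.653 ± 0.0546 and 1.08 ± 0.146, Vwf at 0.368 ± 0.109 and 0.548 ± 0.123, and Gata5 at 0.315 ± 0.176 and 0.513 ± 0.194. Plvap exceeded Gata5 317-fold on this scale. Ehd3, the glomerular capillary marker, stood at 6.00 ± 0.0749 and 9.81 ± 1.58, the twelfth of the 34 by its mean. The rank correlation of level with fold change across the members was 0.0295 (Spearman's rho over 34 genes measured in the same 6 libraries). Merged exons count rare long transcripts, so a gene with such forms is placed too low.

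**Figure D2:**
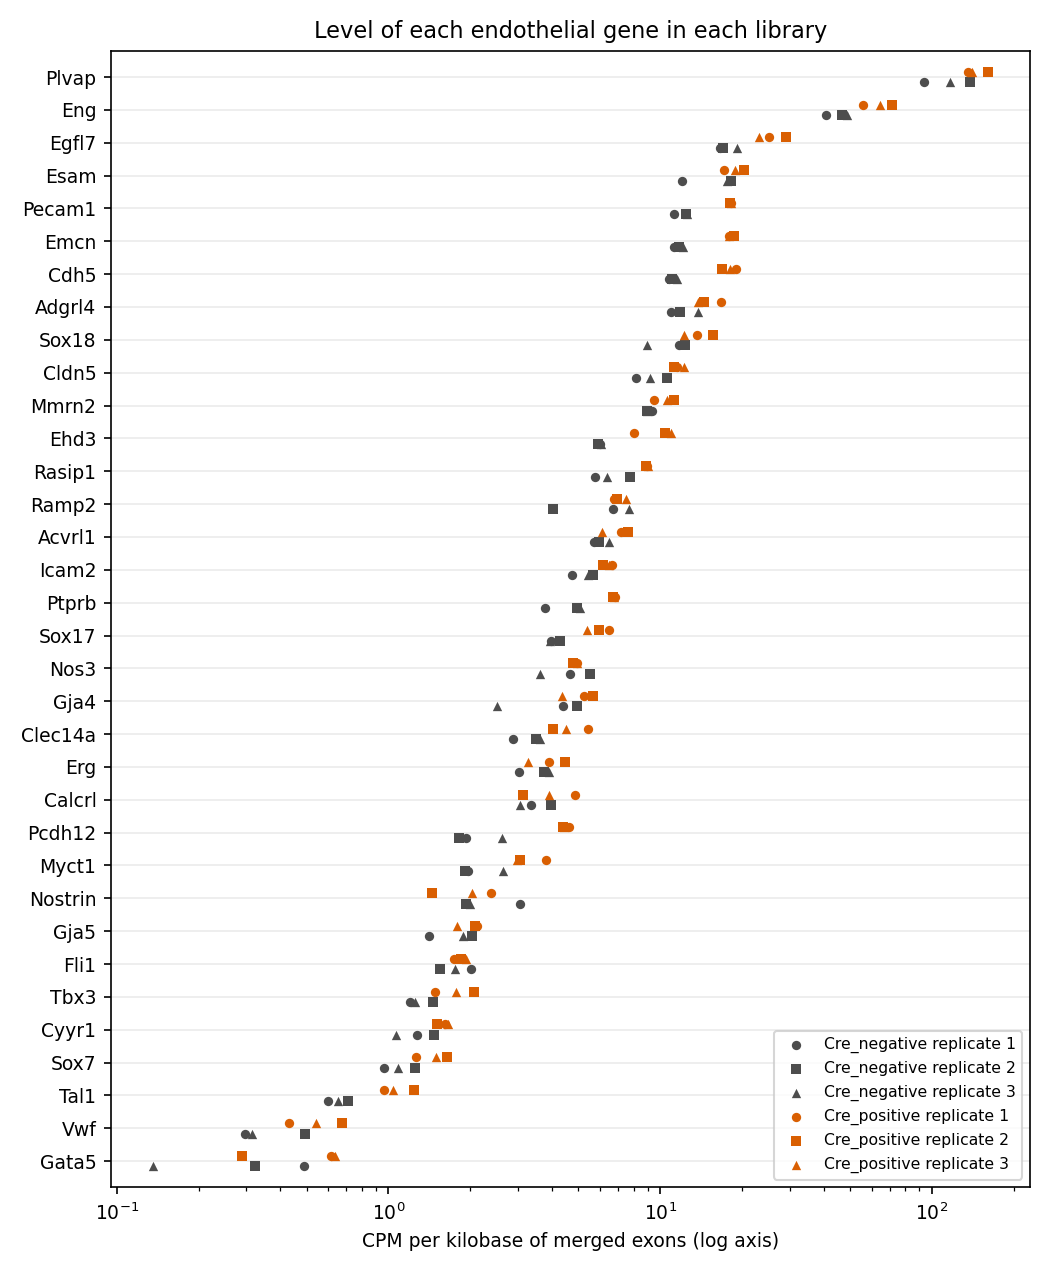
Level of each of the 34 endothelial genes in each of the 6 libraries, in CPM per kilobase of merged exons on a log axis, ordered by the mean. Circles, squares and triangles are replicates 1, 2 and 3, grey for Cre_negative and orange for Cre_positive. Plvap and Eng stand highest and Gata5 and Vwf lowest, and the orange points lie to the right of the grey ones for 20 genes.

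The 4 genes that mark glomerular capillaries differed in their values, and Ehd3 alone of them passed. In what follows the Cre_negative value or values stand before the Cre_positive ones. Ehd3 rose from 39.6, 38.8 and 39.7 CPM in Cre_negative replicates 1, 2 and 3 to 52.5, 68.6 and 71.8 CPM in the Cre_positive ones (log2 fold change 0.71, SE 0.11, edgeR adjusted p = 0.00894). The coefficient of variation was 1.25% among the Cre_negative libraries, the smallest of any member there, and 16.1% among the Cre_positive ones, where replicate 1 was lowest. A coefficient from replicates 1, 2 and 3 alone can be this low by chance. Tbx3, a T-box transcription factor, was at 7.94, 9.65 and 8.28 CPM and at 9.87, 13.7 and 11.8 CPM, without overlap, but its fold change of 0.45 (SE 0.16) had an adjusted p of 0.135. Gata5, a zinc finger transcription factor, was at 1.597, 1.06 and 0.444 CPM against 2.01, 0.948 and 2.09 CPM, and its log2 fold change of 0.70 had a 95% confidence interval of -0.42 to 1.82. Gata5 had 25 counts in its lowest library, the lowest of any member, and the largest coefficients of variation, 55.9% in Cre_negative and 37.8% in Cre_positive libraries. Nostrin, which takes part in the trafficking of endothelial nitric oxide synthase, was at 5.76, 3.63 and 3.77 CPM against 4.50, 2.72 and 3.84 CPM. Its groups overlapped, and the log2 fold change of -0.25 (95% confidence interval -0.87 to 0.36, adjusted p = 0.636) allows between 0.548 and 1.29 times the Cre_negative level. It was -0.00558 without Cre_negative replicate 1 and -0.0738 without Cre_positive replicate 2. The medians were 0.57 for these 4 genes and 0.35 for the other 30, a difference that was not tested. Of 7 further glomerular endothelial genes (Plat, Tspan7, Mapt, Smad6, Sost, Hecw2 and Pi16), none rose or fell, where 7.55% of all genes tested did either. The median of these 7 was 0.28. Tspan7 had the smallest p of these, at 0.28 (SE 0.089, adjusted p = 0.0958), followed by Mapt at 0.20 (SE 0.082) and Smad6 at 0.28 (SE 0.12). Plat, the tissue plasminogen activator, chosen for mention after its values were seen, was the single one of these 7 with a fitted change below 0, at 108 ± 33.7 against 77.0 ± 6.16 CPM (SD, n = 3) without overlap (adjusted p = 0.2115 in edgeR). The summed level of the 7 genes was 274.7 to 320.9 CPM in Cre_negative libraries and 276.6 to 307.3 CPM in Cre_positive ones.

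The junction and surface group held 5 of the 9 rises. Pcdh12, an endothelial protocadherin, had the largest fold change of all members. It went from 11.7, 10.99 and 15.8 CPM in Cre_negative replicates 1, 2 and 3 to 28, 26.6 and 26.9 CPM in the Cre_positive ones (log2 fold change 1.08, SE 0.14, edgeR adjusted p = 0.00387). The lowest Cre_positive library was well above the highest Cre_negative one. Cdh5, the cadherin of endothelial adherens junctions, was at 45.4, 46.5 and 48.7 CPM against 79.7, 70.8 and 76.1 CPM. Its fold change of 0.69 (SE 0.074) corresponds to 1.61 times the Cre_negative level (95% confidence interval 1.44 to 1.81). Pecam1, an adhesion molecule at the same contacts, was at 69.9, 77.6 and 78.3 CPM against 113, 113 and 114 CPM, 1.51 times the Cre_negative level (1.35 to 1.68). The coefficient of variation of Pecam1 among the Cre_positive libraries was 0.363%, and with 3 libraries a value can be this low by chance. Emcn, a sialomucin of the capillary and venous surface, was at 60.7, 63.6 and 65.8 CPM against 97.0, 101 and 96.7 CPM, 1.55 times the Cre_negative level (1.40 to 1.72). Adjusted p-values in edgeR were 0.00158 for Cdh5, 0.00214 for Pecam1 and 0.00139 for Emcn, and these 3 and Pcdh12 passed with any library left out. Ptprb, the phosphatase that restrains the Tie2 receptor, was at 50.3, 66.1 and 67.7 CPM against 90.6, 89.2 and 90.2 CPM, with Cre_negative replicate 1 lowest. It rose by 0.55 (SE 0.11, adjusted p = 0.0199 in edgeR). Leaving out Cre_positive replicate 1, 2 or 3 ended this call, with adjusted p-values of 0.0691, 0.0724 and 0.0818.

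The other 4 junction and surface genes did not pass. Cldn5, the tight junction claudin, was at 13.2 ± 1.70 against 16.6 ± 0.726 CPM (SD, n = 3), and Icam2, an adhesion molecule, at 10.04 ± 0.905 and 12.3 ± 0.469 CPM. Both pairs of groups stayed apart, with adjusted p-values of 0.152 and 0.212 in edgeR. Plvap was at 185.5, 275.2 and 232.1 CPM against 271.1, 319.8 and 279.7 CPM, where Cre_negative replicate 2 reached into the Cre_positive range. Its log2 fold change of 0.33 (95% confidence interval 0.01 to 0.65) had an adjusted p of 0.1975. Esam, an immunoglobulin-type adhesion molecule, had the lowest change of the group at 0.24 (95% confidence interval -0.11 to 0.59), with Cre_negative replicate 1 at 34.5 CPM and the other 5 libraries at 49.1 to 58.3 CPM.

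**Figure D3:**
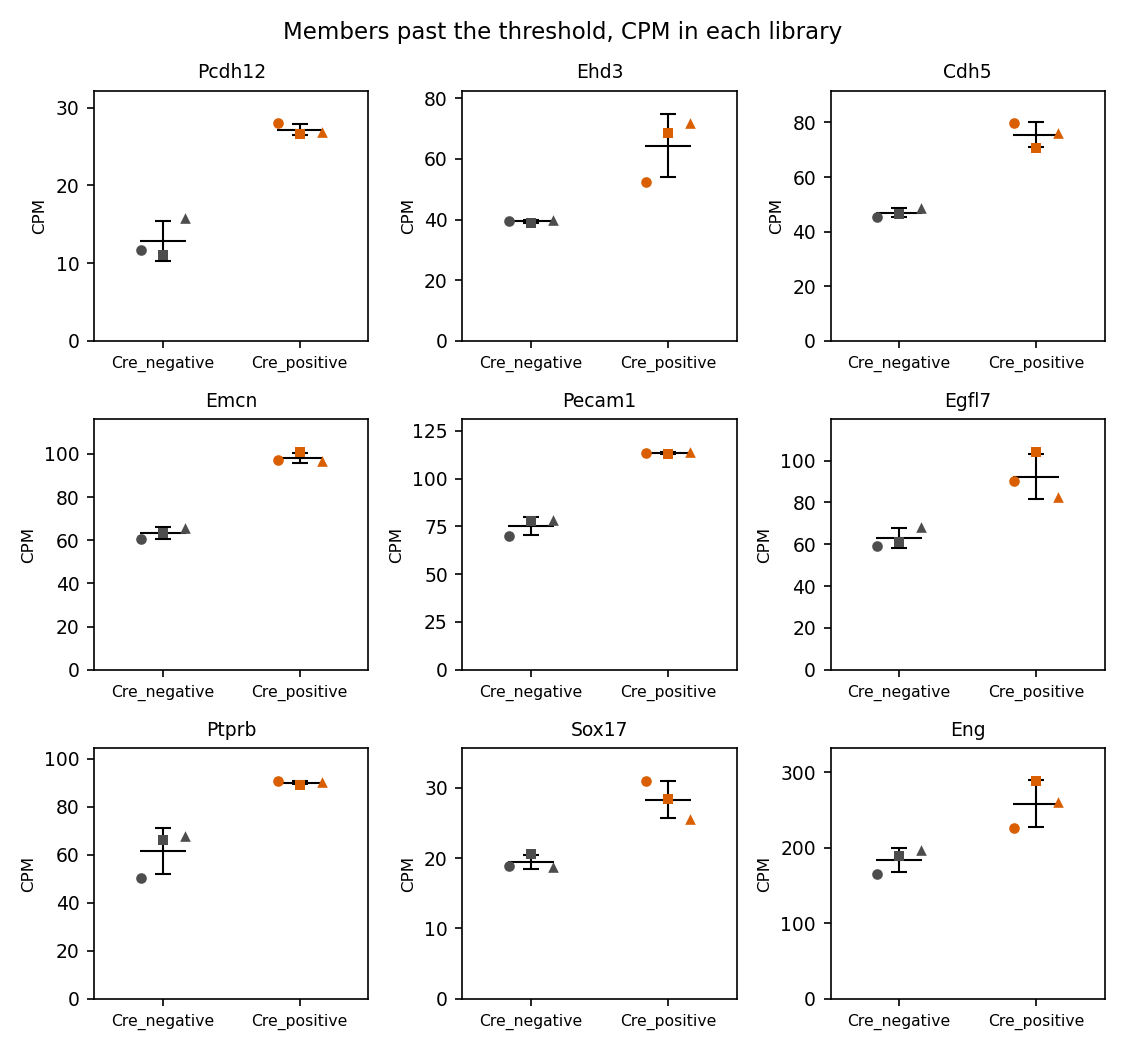
CPM of the 9 endothelial genes that passed an adjusted p of 0.05, in each library (circle, square and triangle for replicates 1, 2 and 3), with the mean as a long dash and the SD (n = 3) as a bar, on axes that start at 0. In each panel the 3 orange Cre_positive points lie above the 3 grey Cre_negative points, from 26.6 to 28 against 10.99 to 15.8 CPM for Pcdh12.

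Among the transcription factors, Sox17 alone of 6 passed, and Erg and Fli1 had the smallest changes. Sox17, a SOXF factor of arterial endothelium, was at 18.9, 20.5 and 18.7 CPM against 30.9, 28.4 and 25.6 CPM (log2 fold change 0.55, SE 0.10, edgeR adjusted p = 0.0147). The call ended without Cre_positive replicate 1 (adjusted p = 0.0621) and without Cre_positive replicate 2 (0.0604). Its relatives Sox7 and Sox18 had fold changes of 0.41 (SE 0.20) and 0.34 (SE 0.14) with adjusted p-values of 0.263 and 0.202. The difference between Sox17 and its relatives was not tested. Tal1, a helix-loop-helix factor of endothelial and blood cells, was at 2.62, 3.10 and 2.86 CPM against 4.20, 5.44 and 4.55 CPM, without overlap. Its log2 fold change of 0.73 (SE 0.20) was the second largest of the 34, with an adjusted p of 0.0669 in edgeR and 0.0119 in DESeq2. Erg was at 10.5, 13.0 and 13.5 CPM against 13.5, 15.5 and 11.3 CPM, and Fli1 at 7.01, 5.40 and 6.15 CPM against 6.06, 6.46 and 6.73 CPM. Both pairs of groups overlapped. The log2 fold change was 0.12 (95% confidence interval -0.24 to 0.48) for Erg and 0.05 (-0.33 to 0.43) for Fli1, which is also expressed in blood cells.

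Of the 10 receptor and signalling genes Eng alone passed. In 6 all Cre_positive libraries lay above all Cre_negative ones, which held for 15.2% of all genes tested. Eng, the TGF-beta and BMP co-receptor endoglin, was at 165, 190 and 197 CPM against 226, 288 and 261 CPM (log2 fold change 0.49, SE 0.11, edgeR adjusted p = 0.0268). The call ended without Cre_negative replicate 1 or 2 (adjusted p of 0.0606 and 0.056) and without Cre_positive replicate 2 or 3 (0.102 and 0.106). Acvrl1, the ALK1 receptor that pairs with endoglin, was at 24.3, 25.3 and 27.7 CPM against 30.7, 32.6 and 26.2 CPM, with an adjusted p of 0.270. Rasip1, a Ras-interacting protein needed for vessel lumens, stood closest to the threshold, at 18.5, 24.9 and 20.5 CPM against 28.7, 28.4 and 28.8 CPM. Its log2 fold change was 0.43 (SE 0.12, adjusted p = 0.0583 in edgeR and 0.0154 in DESeq2). Clec14a, a surface lectin, and Myct1 had fold changes of 0.48 (SE 0.14, adjusted p = 0.0782) and 0.60 (SE 0.19, adjusted p = 0.0909), and both passed in DESeq2 (0.0249 and 0.0257). Adgrl4, an adhesion G protein-coupled receptor, and Cyyr1 had changes of 0.30 (SE 0.11) and 0.33 (SE 0.14) and did not pass, although neither pair of groups overlapped. Calcrl and Ramp2, which together form the adrenomedullin receptor, had changes of 0.20 (95% confidence interval -0.19 to 0.59) and 0.20 (-0.29 to 0.70). Ramp2 was at 13.3 CPM in Cre_negative replicate 2 and at 22.1 to 25.4 CPM in the other 5 libraries. Nos3, the endothelial nitric oxide synthase, was at 19.3, 22.9 and 15.0 CPM against 20.4, 19.7 and 20.4 CPM, and its interval of -0.25 to 0.415 bounds a rise at 1.33-fold.

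Egfl7, a secreted angiogenic factor whose gene also holds miR-126, was the single rise among the secreted proteins. It was at 59.4, 60.9 and 68.4 CPM against 90.3, 104 and 82.6 CPM (log2 fold change 0.55, SE 0.099, edgeR adjusted p = 0.0136), and passed with any library left out. Mmrn2, an endothelial matrix protein that binds Clec14a, had a log2 fold change of 0.21 (95% confidence interval 0.01 to 0.40) without overlap, and its adjusted p was 0.181. Vwf, the von Willebrand factor stored in granules of larger vessels, was at 4.74, 7.93 and 5.05 CPM against 6.90, 10.9 and 8.67 CPM, with overlap and an adjusted p of 0.202. The arterial connexins Gja4 and Gja5 both overlapped between genotypes, at 6.65 ± 2.17 against 8.57 ± 1.12 CPM and 10.2 ± 1.84 against 11.5 ± 1.03 CPM (SD, n = 3). Their log2 fold changes of 0.37 and 0.17 had adjusted p-values of 0.4345 and 0.5901 in edgeR.

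The members that passed were on the whole high in CPM, which depends on gene length, and evenly measured, with exceptions. Per length, Ptprb, Sox17 and Pcdh12 ranked 17, 18 and 24 of the 34, and Plvap, the highest, did not pass. Pcdh12 and Ptprb had coefficients of variation of 20.4% and 15.6% among the Cre_negative libraries. The median coefficient of variation was 6.15% in Cre_negative and 5.97% in Cre_positive libraries for the 9 genes that rose, and 15.4% and 11% for the other 25. This spread is itself an input of the test. None of the 8 members with a mean under 10 CPM passed. Of the 26 at or above that level 9 rose (34.6%), where 5.59% of all genes at that level rose. For 9 of the 25 members that did not pass, the upper end of the 95% confidence interval was under 1.5-fold. Within the Cre_negative group replicate 1 was the lowest of the 3 libraries for 20 of 34 genes and replicate 2 the highest for 16, while among the 9 that rose replicate 3 was the highest for 8. The mean deviation of a library from its group mean was largest in Cre_negative replicate 2 over all 34 members, at 0.0765 on the log2 scale. Over the 9 that rose it ranged from -0.0949 in Cre_negative replicate 1 to 0.0925 in Cre_negative replicate 3, and over the other 25 it reached 0.103 in Cre_negative replicate 2.

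Other endothelial genes, from lists outside the 34, were also compared. For each list here and below, the shares over all genes tested were 3.73% that rose and 3.82% that fell. Of 22 further pan-endothelial genes 10 rose and none fell, with a median log2 fold change of 0.49. The ETS factor Ets1 rose by 0.60 (SE 0.067, adjusted p = 0.00184), the guidance receptor Robo4 by 0.87 (SE 0.13, adjusted p = 0.00648) and the VEGF receptor Kdr by 0.61 (SE 0.092, adjusted p = 0.00661), from 58.8 to 89.7 CPM. Of 8 arterial genes 2 rose, with a median of 0.21: the elastic fibre gene Fbln5, at 153 against 332 CPM, by 1.12 (SE 0.097, adjusted p = 0.000561) and the ephrin gene Efnb2 by 0.465 (SE 0.11, adjusted p = 0.0402, held in 2 of the 6 fits with a library left out), while Jag1 was at 0.26 (adjusted p = 0.148). Fbln5 is also made by fibroblasts and smooth muscle. The fitted change was above 0 for 5 of the 8 arterial genes and below 0 for 3. Those 3, named after their values were seen, were Bmx at -0.37, Hey1 at -0.11 and Unc5b at -0.04, each with overlap and without passing. Of 4 venous genes 3 were tested and none passed, with a median of 0.21. Aplnr, the apelin receptor, was at 7.56 ± 3.89 against 33.2 ± 12 CPM (SD, n = 3) without overlap (log2 fold change 2.13, SE 0.48, edgeR adjusted p = 0.0603). Nr2f2 was at 0.21 (adjusted p = 0.0978) and Ephb4 at 0.16 (0.251). None of 6 lymphatic genes passed (median 0.13). Flt4, Reln and Ccl21a had the smallest p-values there, with changes of 0.24, 0.58 and -0.34 and overlap in each. As 7.55% of all genes tested passed in either direction, none passing in lists this short is not a contrast with other genes.

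Of 6 genes of endothelial activation 1 fell, none rose and the median log2 fold change was -0.79. Icam1, the leukocyte adhesion molecule, was at 53.8 ± 19.4 against 22.4 ± 2.10 CPM (SD, n = 3) and fell (log2 fold change -1.27, SE 0.24, edgeR adjusted p = 0.0266), a call that held in 3 of the 6 fits with a library left out. Vcam1 was at -1.53 (SE 0.64, adjusted p = 0.239) and the vasoconstrictor peptide gene Edn1 at -0.80 (SE 0.32, adjusted p = 0.172). The genotypes overlapped in Vcam1, which was at 86.2, 17.1 and 32.9 CPM in Cre_negative replicates 1, 2 and 3. Its Cre_positive values were 17.0, 12.9 and 17.3 CPM. The fitted change was below 0 for 4 of the 6 genes and above 0 for 2. These 2, named after their values were seen, were Angpt2 at 0.55 and Sele at 0.17, both with overlap and without passing. Other cells of the kidney, injured tubule included, also express Icam1 and Vcam1.

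Markers of other cell types moved between the same libraries, and their part in the endothelial differences was not tested. Of 13 podocyte genes 3 rose and none fell (median 0.39), among them Foxc2 at 0.85 and Synpo at 0.44. The calls of Foxc2 and Synpo each held in 4 of the 6 fits with a library left out. The summed level of the 13 genes was 674 to 760 CPM in Cre_negative and 907 to 1028 CPM in Cre_positive libraries. Of 8 mesangial genes 4 rose and 1 fell (median 0.45, sums of 215 to 263 and 283 to 293 CPM), with Sfrp2 at 1.86, Itga8 at 0.83 and Serpine2 at -1.32. Of 6 smooth muscle and renin genes 1 rose (median 0.41, sums of 221 to 328 and 335 to 363 CPM). This was Rgs5 at 0.45, a call that held in 1 of the 6 fits with a library left out. Ren1 and Myh11 were at 0.60 and 0.38 without passing. The fitted change was below 0 for 2 of these 6 genes, named after their values were seen. They were the contractile genes Acta2, at -0.23, and Tagln, at -0.09, both with overlap and without passing. The endothelial median of 0.39 stood beside medians of 0.39, 0.45 and 0.41 for these lists.

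Tubule RNA was abundant in all isolates, and most but not all of its markers were higher in Cre_positive. Of 10 proximal tubule genes 6 rose (median 0.69), among them Lrp2 at 0.83, Slc5a12 at 0.80 and Miox at 0.77. Leaving out Kap, which alone went from 244 to 6372 CPM, their sum was 7390 to 8906 CPM in Cre_negative and 11520 to 12610 CPM in Cre_positive libraries. Of 7 genes of later nephron segments, from the loop to the collecting duct, 5 rose (median 0.58, sums of 5917 to 7292 and 9527 to 10120 CPM), with Umod, Slc4a1 and Slc26a4 each at 0.99. Fitted changes below 0, named after their values were seen, were those of Slc22a6, at 562 ± 153 against 345 ± 30.3 CPM without overlap (SD, n = 3; edgeR adjusted p = 0.0553), Slc13a3 at -0.17 and Aqp2 at -0.66, and none of these passed. For genes that glomerular and peritubular endothelium share, RNA of these vessels cannot be told apart in bulk libraries.

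Blood cells express some of the members too, Pecam1, Tal1 and Fli1 among them. Of 9 macrophage genes 2 fell, Cd14 at -2.07 and C1qc at -1.25. These calls held in 2 and 3 of the 6 fits with a library left out. The macrophage median was -0.86, with sums of 189 to 352 and 177 to 190 CPM, and Lyz2 was at -1.06 without passing. The sum was 352 CPM in Cre_negative replicate 1, and that of Cre_negative replicate 2, at 189 CPM, lay within the Cre_positive range. The genotypes overlapped in 5 of the 9 genes. Csf1r, named after its values were seen, was the 1 gene of the 9 with a fitted change above 0. It was at 80.5 against 91.0 CPM, a change of 0.18, without passing. Of the platelet markers Ppbp, Gp9 and Gp1bb the 6 libraries together held 24, 8 and 9 counts, and the tested pair Pf4 and Itga2b, with 341 and 2906 counts, had log2 fold changes of 0.47 and -0.30 without passing. Of 7 lymphocyte and neutrophil genes 5 were tested and none passed (median 0.70), with sums of at most 4.37 CPM and with Cd79a, S100a9 and Ms4a1 at 2.01, -1.599 and 1.61. Of 6 red blood cell genes 5 were tested and none passed, but the median was 1.49 and the sums were 71.5 to 216 CPM in Cre_negative and 216 to 584 CPM in Cre_positive libraries, with Alas2 at 1.43, Hba-a1 at 1.54 and Hba-a2 at 1.58. The near-identical globin genes can share reads.

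**Figure D4:**
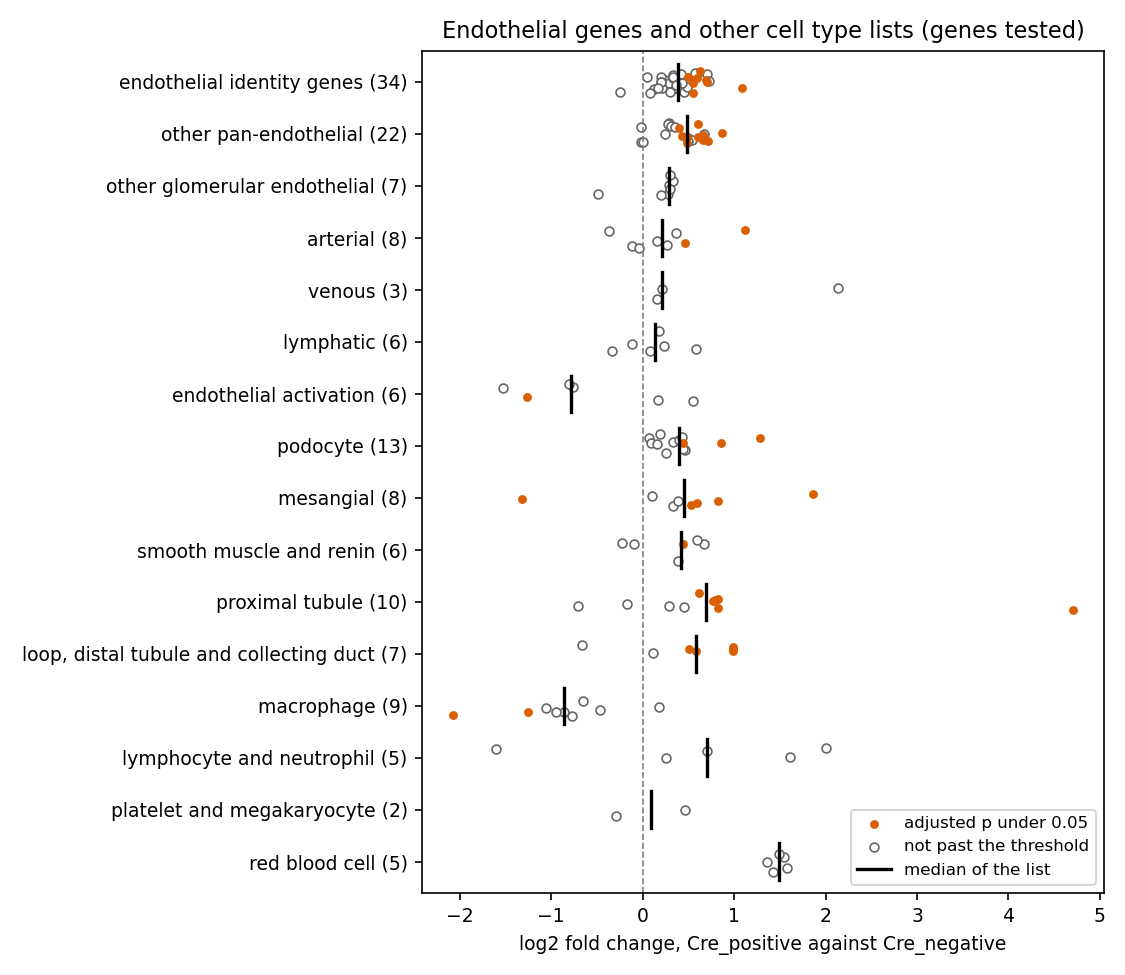
Log2 fold change of each tested gene in Cre_positive against Cre_negative libraries (n = 3 each), by list, with the number of genes tested in brackets and the median as a black line. Filled points passed an adjusted p of 0.05. The endothelial median of 0.39 lies beside those of the podocyte (0.39) and mesangial (0.45) lists. It lies below those of the proximal tubule (0.69), later nephron (0.58) and red blood cell (1.49) lists, among others. The macrophage (-0.86) and endothelial activation (-0.79) medians are below 0.

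Some members share exons with another gene in GENCODE M21, and without a stated strand setting their counts are uncertain to that extent. Ramp2 shares 33.4% of its merged exon length with Vps25 on the same strand, which had 24940 counts in all against 7337 for Ramp2 and was at 78.4 ± 8.99 against 69.4 ± 5.05 CPM (SD, n = 3). Cre_negative replicate 2, lowest in Ramp2, was the highest in Vps25, at 88.1 CPM. Nos3 shares 25.2% with the antisense gene Gm15587 (109 counts in all) and 7.11% with Atg9b (291 counts). Rasip1 shares 20.4% with Izumo1 (121 counts) and 15.6% with the opposite-strand gene A030001D20Rik (1426 counts against 8363), and Sox17 shares 16.8% with Gm37587 (13 counts). For the other members that rose, no single gene shared more than 7.37% of the length, the share of Egfl7 with a gene at 0 counts.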

How the data were processed

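RNA sequencing of isolated glomeruli was analysed in 6 samples, 3 per genotype. Per the labels' protocols, polyadenylated RNA was made into strand-marked libraries with dUTP. Tools named in the submitters' processing notes are fastp, HISAT2, StringTie and edgeR, with the build GRCm39. The authors deposited whole-number read counts per Ensembl gene. Neither the annotation release nor how strand and multiply matching reads were handled is given in the sources used here.

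Symbols came from a table covering 51880 of 57132 rows. Counts were analysed with R 4.3.3 and edgeR 4.0.16: filterByExpr, TMM factors (0.979 to 1.03) and the quasi-likelihood test (robust=TRUE) of genotype, with Benjamini-Hochberg adjustment over all genes and a threshold of 0.05. Each standard error was taken as the fold change (log2) over the root of the F statistic. The common biological coefficient of variation was 21.5%. The test was also run on simulated counts with larger changes than most members show, which does not check the calls made here. Pairs of libraries differed by a chi-square per degree of freedom of 20.6 or more, so none was a copy. Exon lengths and overlaps came from GENCODE M21 (GRCm38) and promoter windows from RefSeq (GRCm38.p6), another build than the notes name. The 34 members and the 15 other lists were chosen with earlier results of these data known. The text names all members, Setdb2 and up to 3 genes per list by smallest p, and others where it says so or where a result turns on them (Xist, Vps25, Kap, platelet markers and overlapping genes). Some items the rule selects are not reported here. The alternatives were DESeq2 1.42.0, its size factors or upper-quartile factors in edgeR, limma 3.58.1 (voom, weighted by sample quality), other filters, robust=FALSE, a replicate block and each library left out.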

Additional observations from a re-analysis of the deposited data

How the results depend on the processing

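Across the alternatives to the normalization, test and filter, 9 to 13 members rose and none fell, with a median log2 fold change of 0.38 to 0.39. DESeq2 called 2697 genes in all against 1505, and its 13 members included Tal1, Clec14a, Rasip1 and Myct1. Keeping genes with 1 CPM or more in 3 libraries added Rasip1 (adjusted p = 0.0479). When single libraries were left out, the genes called ranged from 470 (without Cre_positive replicate 3) to 2055 (without Cre_negative replicate 3), at 718 and 615 without Cre_positive replicates 1 and 2. The members that rose ranged from 6 to 11 and their median from 0.348 to 0.511, highest without Cre_negative replicate 2. Pcdh12, Ehd3, Cdh5, Emcn, Pecam1 and Egfl7 passed in all 6. Adgrl4 and Myct1 passed without Cre_negative replicate 3 (0.0461 and 0.0385) and Rasip1 without Cre_negative replicate 2 (0.0211). The sign changed for 3 members, none past the threshold: Fli1 (-0.0404 to 0.151 over the 6 fits) and Ramp2 (-0.0281 to 0.399), both lowest without Cre_negative replicate 2, and Nos3 (-0.0655 to 0.231), lowest without Cre_negative replicate 3. The cause was not tested. Same-numbered libraries deviated together with correlations of 0.0547, 0.0551 and 0.0173, each the highest for its libraries. Values this small do not decide whether same-numbered libraries share more than a number. The main fit had no replicate term. With the replicate block, 9 members rose, 1541 genes were called and the median was 0.413. The lowest count of any member in any library was 25, in Gata5.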
